A study of Homo sapiens with 8 samples.

Results

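The 10 genes described here encode proteins that hold back mTORC1, the kinase complex that drives protein synthesis and growth. They are the sestrins SESN1, SESN2 and SESN3, the arginine sensor CASTOR1, its relative CASTOR2 and the stress-induced inhibitor DDIT4 (also REDD1). The others are TSC2 of the TSC complex, and DEPDC5, NPRL2 and NPRL3, which together form GATOR1. The 10 were taken by name from a list of negative regulators of mTORC1. The rule itself used no measured value, but the list was chosen with earlier results of these data known. All 10 had counts in every library and all 10 entered the test, out of 34290 genes with a count and 19280 tested. RNA was measured by sequencing in HEK293T, a transformed human embryonic kidney line that is easily transfected. Normal HEK293T cells (control, 4 libraries) were compared with HEK293T cells transfected with a tagged construct of the human KCNQ3 open reading frame, which encodes a potassium channel subunit (overexpression, 4 libraries), all harvested at 48 h after transfection and grown in the same high-glucose medium with serum. The transfection text is the same on every sample, and the sources used here do not say whether control cells received reagent or empty plasmid, which promoter drove the construct or what share of cells took it up. The series calls the libraries biological replicates without saying that the cultures were separate, so p-values here measure only how far these libraries differ, which could be technical.

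mTORC1 works at the lysosome and needs both amino acids and growth factor signals. Amino acids act through the Rag GTPases, which GATOR1 switches off. GATOR2 opposes GATOR1, and sestrins (when leucine is low) and CASTOR1 (when arginine is low) bind and restrain GATOR2. Growth factor and stress signals act through the TSC complex, in which TSC2 switches off the GTPase RHEB, and DDIT4 strengthens that action. SESN2 and DDIT4 are known targets of ATF4 in the integrated stress response, DDIT4 is also induced by hypoxia and glucocorticoids, and SESN3 is a known target of FOXO factors.

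Because these genes are best known for how they are transcribed under stress, their promoter windows (250 bases before to 50 after each start, RefSeq, build GRCh38.p14) were searched on both strands for 5 motifs. Of the 10 genes, 9 matched the RefSeq table, with 14 windows, and CASTOR2 had no entry. The letters were TGATGNAA (the ATF4 and C/EBP composite element), CACGTG (the E-box), ACGTG (the hypoxia response core, which CACGTG contains), TGACNNNGC (the antioxidant response element) and GTAAACA (a FOXO site). Among 35116 windows of all genes they occurred in 3.62%, 7.26%, 21.4%, 13.3% and 3.42%. The 3 promoter stretches are printed because their genes carry the comparisons that follow: SESN2 had the largest difference apart from the unevenly counted DEPDC5, DDIT4 was the most abundant and its groups did not overlap, and TSC2 held the densest cluster of matches. Capitals mark the matched letters, and all are on the + strand, 5′ to 3′.
SESN2, chr1:28259268-28259517: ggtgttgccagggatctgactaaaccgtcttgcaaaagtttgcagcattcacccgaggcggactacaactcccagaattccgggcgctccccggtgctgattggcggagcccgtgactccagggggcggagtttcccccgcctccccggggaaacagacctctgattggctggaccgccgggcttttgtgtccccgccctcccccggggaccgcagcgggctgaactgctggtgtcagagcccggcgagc
DDIT4, chr10:72273674-72273919: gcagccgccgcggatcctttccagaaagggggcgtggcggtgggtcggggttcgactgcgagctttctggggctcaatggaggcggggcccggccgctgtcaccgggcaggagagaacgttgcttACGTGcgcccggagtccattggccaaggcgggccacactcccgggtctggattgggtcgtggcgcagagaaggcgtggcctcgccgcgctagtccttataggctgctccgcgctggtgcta
TSC2, chr16:2047864-2047893: GCCCCGTCACGTGATGCAAggatcgccggc
No letters of the 5 motifs were found in the SESN2 windows, nor in those of SESN3, CASTOR1 or DEPDC5, which says only that these letters are not in the windows. The DDIT4 stretch, which ends just before the first base of the gene in GENCODE, has ACGTG beginning 125 bases before the RefSeq start. The 30-base TSC2 stretch lies before the start used for its RefSeq window, but inside the gene in GENCODE, which begins at 2047465. The other TSC2 window held no match. In the 30-base stretch the matches run into one another. They are TGACNNNGC on the opposite strand beginning 121 bases before the start, CACGTG beginning 114 bases before it and TGATGCAA, a match to TGATGNAA, beginning 110 bases before it. NPRL3 had CACGTG beginning 25 bases after its start, and NPRL2 and SESN1 had TGACNNNGC on the opposite strand, beginning 126 and 159 bases before theirs. In all, 5 of the 14 windows, of 5 genes, held a match. A match is a description of letters, not of binding.

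The libraries held 24020097 to 30734915 estimated counts each, and the mitochondrial share was 3.94% to 5.53% for controls and 4.77% to 5.77% after overexpression. Control libraries held 0 to 5 counts of KCNQ3 and overexpression libraries 15283 to 19709, which checks the labels. Of 8 markers of HEK293 cells all had counts, with a summed level of 766 to 976 TPM in controls and 737 to 854 TPM in overexpression libraries. Fibroblast markers summed to 5.62 to 7.29 and 3.91 to 6.15 TPM, with COL1A2 and DCN at 0 counts throughout, and blood markers to 1.51 to 2.77 and 1.67 to 2.61 TPM, with PTPRC, CD3E and HBB at 0. Endothelial markers reached at most 0.057 TPM. Across all genes, edgeR's quasi-likelihood test called 58 (0.301% of those tested) at an adjusted p under 0.05, and none of the 10 brake genes was among them. DESeq2 called 727 of 14974 genes (4.86%) and also none of the 10. The edgeR count over all genes rested on single libraries: it was 378 without overexpression replicate 1, 194 without control replicate 4, and 8 to 20 without any one of the others.

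Levels compared between genes per length, as TPM over all 8 libraries set the 10 genes far apart. DDIT4 stood alone at the top with a mean of 289 TPM and a range of 235 to 349 TPM. SESN2 followed at 89.1 TPM and TSC2 at 55.8 TPM, and their ranges over libraries overlapped. NPRL2 had a mean of 41.6 TPM, SESN1 28.96 TPM and NPRL3 28.6 TPM, with SESN1 and NPRL3 overlapping. SESN3 was lower, at 10.9 TPM. DEPDC5 (5.00 TPM), CASTOR2 (3.55 TPM) and CASTOR1 (2.65 TPM) were the least abundant, and each overlapped its neighbour. Among the sestrins SESN2 was thus the most abundant per length, and within GATOR1 the DEPDC5 transcript stood lower than those of its partners NPRL2 and NPRL3. Identifiers that did not match GENCODE 29 entered no gene sum, and whether any of them belong to DEPDC5 was not tested, which bears on its level, its spread and its fold change. The TPM of CASTOR2 assumes a longer transcript than GENCODE lists: the deposited counts and TPM of CASTOR2-201 imply 8109 bases against 1257 in release 29.

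**Figure D1:**
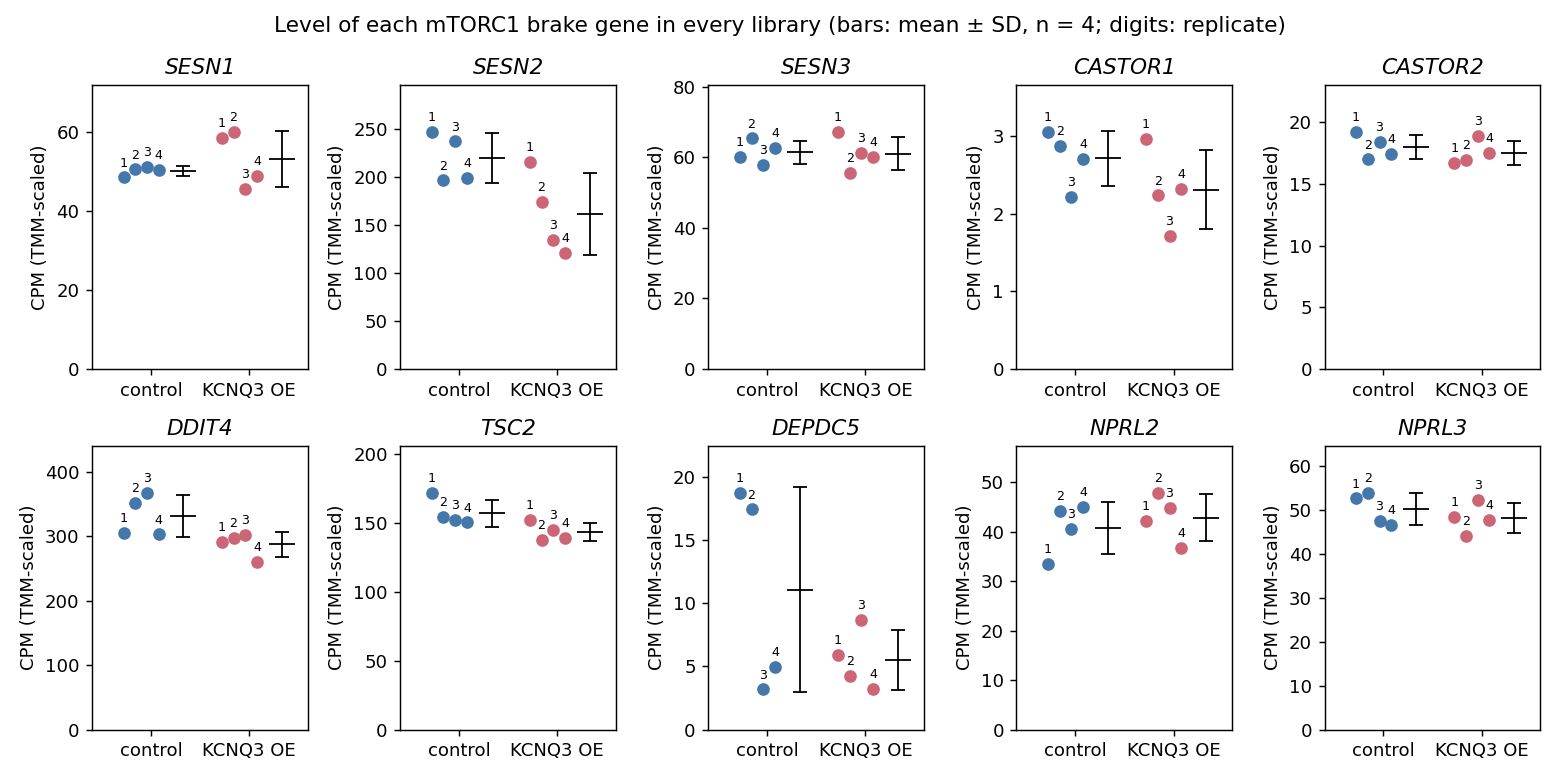
Level of each of the 10 genes in every library, in TMM-scaled counts per 1e+06 counts (CPM, linear axes from 0), for 4 control and 4 overexpression libraries. Points are libraries, digits are replicate numbers, and bars beside them are the mean ± SD. The DEPDC5 points split within the controls, and the SESN2 points spread in the overexpression group.

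Unless named as TPM, levels from here on are CPM, TMM-scaled counts per 1e+06, and fold changes are overexpression over control from edgeR's quasi-likelihood fit, with p adjusted over all 19280 genes. SESN2 (ENSG00000130766, chromosome 1, 28259527 to 28282491, + strand, GRCh38), whose protein senses leucine, stood at 247, 197, 237 and 199 CPM in control replicates 1 to 4 and at 216, 175, 135 and 121 CPM in overexpression replicates 1 to 4. Overexpression replicates 2, 3 and 4 lay below all 4 controls, and replicate 1 lay among them. The means were 220 ± 25.9 and 162 ± 43.0 CPM (SD, n = 4 each), a log2 fold change of -0.44 (SE 0.20, 95% interval -0.92 to 0.03) with an adjusted p of 0.284. Without overexpression replicate 1 the log2 fold change was -0.62, with an adjusted p of 0.0888. In bulk RNA, less transcript per cell and fewer cells that carry it cannot be told apart.

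SESN1 (ENSG00000080546, chromosome 6, 108986437 to 109094819, - strand) was very even in controls, at 48.5, 50.5, 51.2 and 50.3 CPM. The overexpression libraries had 58.6, 59.9, 45.7 and 48.8 CPM, so replicates 1 and 2 lay above every control and replicate 3 below every control. The log2 fold change was 0.09 (SE 0.083), with a 95% interval of -0.10 to 0.27 and an adjusted p of 0.614. SESN3 (ENSG00000149212, chromosome 11, 95165513 to 95232541, - strand), the FOXO-responsive sestrin, had 60.1, 65.4, 57.8 and 62.6 CPM in controls and 67.1, 55.7, 61.3 and 60.1 CPM after overexpression. The groups lay on top of one another, with a log2 fold change of -0.01 (SE 0.060, 95% interval -0.14 to 0.12) and an adjusted p of 0.949. An antisense gene, AP000787.1, overlaps SESN3 at 1.00 ± 0.48 CPM in controls, and the sources used here do not say whether strand was used in counting.

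To test whether the sestrins differed from each other in response, the log2 ratio of CPM was taken in each library. SESN2 to SESN1 was 2.35, 1.96, 2.21 and 1.98 in controls and 1.88, 1.54, 1.56 and 1.31 in overexpression libraries. Every overexpression value was below every control value, and the means differed by -0.55 (2.13 ± 0.19 against 1.57 ± 0.24, SD, n = 4 each). The exact two-sided permutation test over 70 assignments gave p = 0.0286, the smallest it can give, and 0.0857 after adjustment over the 3 pairs, so the difference did not pass the threshold. The SESN2 to SESN3 ratio was 1.83 ± 0.24 in controls and 1.37 ± 0.35 in overexpression libraries, a difference of -0.46 (exact permutation p = 0.143, 0.214 adjusted). For SESN1 to SESN3 the difference was 0.09 (exact permutation p = 0.600, 0.600 adjusted). Without any one control library the SESN2 to SESN1 ratio had an exact p of 0.0571, and without overexpression replicate 2 the SESN1 to SESN3 difference was -0.01.

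The CASTOR genes were scarce. CASTOR1 (ENSG00000239282, chromosome 22, 30285117 to 30289627, - strand) had only 46 to 94 counts per library. Its levels were 3.05, 2.88, 2.22 and 2.70 CPM in controls and 2.96, 2.23, 1.72 and 2.32 CPM after overexpression, with overlap. The log2 fold change was -0.23 (SE 0.16, 95% interval -0.60 to 0.13, adjusted p 0.468). A read-through gene on the same strand, AC004997.1, took 5, 0, 3 and 0 counts in control replicates and 0, 13, 30 and 7 after overexpression, and with these added to CASTOR1 the log2 fold change was 0.004 (adjusted p 0.992). The sign for CASTOR1 therefore depended on how reads were divided between both genes. CASTOR2 (ENSG00000274070, chromosome 7, 74964818 to 75024798, + strand) had 19.2, 17.0, 18.4 and 17.4 CPM in controls and 16.7, 17.0, 18.9 and 17.5 CPM after overexpression. This was among the tightest of the 10 genes, with a highest-to-lowest ratio of 1.15 and a log2 fold change of -0.04 (95% interval -0.18 to 0.10, adjusted p 0.785). Its near copy CASTOR3, also on chromosome 7, stood at 8.78 ± 0.23 CPM in controls, and reads shared by both copies were divided by the authors' estimate.

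On the growth factor arm, DDIT4 (ENSG00000168209, chromosome 10, 72273920 to 72276036, + strand) was the one brake gene whose groups did not overlap. Controls had 306, 352, 368 and 303 CPM and overexpression libraries 291, 298, 303 and 260 CPM. The lowest control and the highest overexpression library, control replicate 4 and overexpression replicate 3, were only 0.123 CPM apart. The means were 332 ± 32.6 and 288 ± 19.3 CPM, a ratio of 0.867 and a log2 fold change of -0.21 (SE 0.073, 95% interval -0.37 to -0.04). Its unadjusted p was 0.0172 and its adjusted p 0.167 by edgeR, which did not pass. On the TPM scale the groups overlapped, since overexpression replicate 1 had 280 TPM and control replicate 4 had 271 TPM.

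TSC2 (ENSG00000103197, chromosome 16, 2047465 to 2089487, + strand), the catalytic brake on RHEB, had 171, 154, 152 and 150 CPM in controls. Overexpression libraries had 152, 137, 145 and 139 CPM. Overexpression replicate 1 reached into the control range, and the other overexpression libraries lay below it. The log2 fold change was -0.13 (SE 0.053, 95% interval -0.25 to -0.02), with an unadjusted p of 0.0293 and an adjusted p of 0.205. It overlaps NTHL1 (8.65 ± 5.70 CPM in controls) and PKD1 (91.3 ± 4.99 CPM) at its ends in the annotation.

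The GATOR1 genes did not share a direction. NPRL2 (ENSG00000114388, chromosome 3, 50347330 to 50351091, - strand) had 33.4, 44.2, 40.5 and 45.0 CPM in controls and 42.1, 47.8, 44.8 and 36.7 CPM after overexpression, a log2 fold change of 0.07 (95% interval -0.18 to 0.32, adjusted p 0.780). Control replicate 1 was the lowest of all 8 libraries, and without it the log2 fold change was -0.02. NPRL3 (ENSG00000103148, chromosome 16, 84271 to 138860, - strand) had 52.6, 53.8, 47.5 and 46.6 CPM in controls and 48.4, 44.0, 52.3 and 47.7 CPM after overexpression, a log2 fold change of -0.06 (95% interval -0.20 to 0.08, adjusted p 0.660). In both genes the groups were interleaved, with a highest-to-lowest ratio of 1.43 for NPRL2 and 1.22 for NPRL3.

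DEPDC5 (ENSG00000100150, chromosome 22, 31753867 to 31908033, + strand), the largest GATOR1 subunit, which binds the Rag GTPases, was the least even of the 10. Controls split into replicates 1 and 2 at 18.7 and 17.4 CPM and replicates 3 and 4 at 3.18 and 4.97 CPM. Overexpression libraries had 5.89, 4.22, 8.65 and 3.23 CPM, all within the control range. The coefficient of variation was 73.4% in controls and 43.1% in overexpression libraries, and the highest library had 5.89 times the level of the lowest. Its log2 fold change was the most negative of the 10, at -1.01, but with an SE of 0.67, a 95% interval of -2.64 to 0.62 and an adjusted p of 0.468. Without control replicate 1 it was -0.64, and in limma on log2(TPM + 0.1) it was -0.33.

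**Figure D2:**
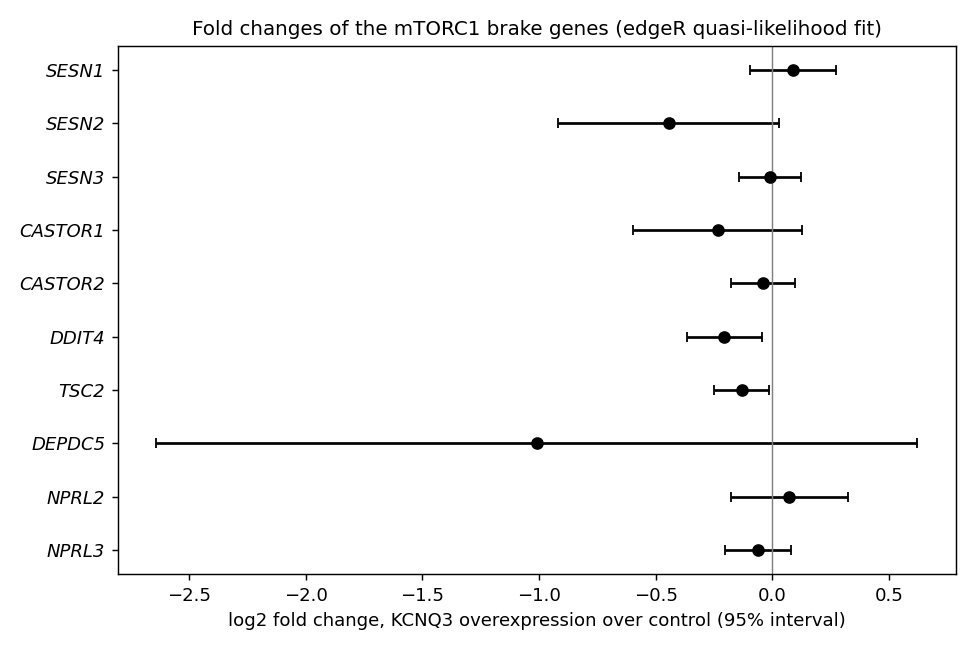
Log2 fold change of each gene (overexpression over control, points) with its 95% interval (bars) from edgeR's quasi-likelihood fit over all genes. The intervals of DDIT4 and TSC2 lie below 0 before adjustment, and the interval of DEPDC5 runs from -2.64 to 0.62.

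The 10 genes were read against all genes tested. At an unadjusted p under 0.05, 2 of the 10 were lower (DDIT4 and TSC2), where 9.46% of all tested genes were, and 0 were higher, where 9.92% were. The groups failed to overlap in 1 of the 10 with the controls higher (DDIT4), where 5.77% of all genes did so, and in 0 with the controls lower, where 5.84% did. Of the 10 log2 fold changes 8 were below 0, as were 47.4% of those of all tested genes, and their median was -0.10, beside a median of 0.01 over all tested genes. Overexpression replicate 1 weighed on these counts. Without it, 3 genes lay lower with no overlap (SESN2, DDIT4 and TSC2), where 11.3% of all genes did, and 4 were lower at an unadjusted p under 0.05 (those and CASTOR1), where 11.7% were. None of the 10 passed after adjustment there, where 1.94% of all genes did. Leaving out control replicate 1, 2 or 3 or overexpression replicate 2 or 4 left 1 gene lower at an unadjusted p under 0.05, where 7.18% to 8.43% of all genes were.

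The deposited tables list transcripts, so each gene was also resolved by isoform. Of 196 annotated transcripts of the 10 genes, 137 had counts, 43 were tested, and 0 passed an adjusted p of 0.05 in edgeR's quasi-likelihood test, where 6 of 47129 transcripts (0.0127%) did. At an unadjusted p under 0.05 there were 3 of the 43 (DDIT4-201, NPRL2-214 and TSC2-248), beside 5.58% of all transcripts. DESeq2 called 2, TSC2-248 as lower and TSC2-207 as higher, beside 1.03% of the 70463 transcripts it adjusted. The TSC2-207 call, with a log2 fold change of 25.6, came from counts in 2 overexpression libraries alone. SESN2, CASTOR2, DDIT4 and SESN3 were each read from essentially one transcript: SESN2-201 held 100%, DDIT4-201 at least 99.1% and SESN3-203 at least 98.2% of the counts in every library. Other genes were divided differently from library to library. For SESN1, TSC2 and NPRL2, the summed gene level was far steadier than the isoforms.

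SESN1 alternated between a pair of protein-coding transcripts. SESN1-202 had 1148, 781, 950 and 454 counts in control replicates 1 to 4, against 568, 1160, 1196 and 35 after overexpression. SESN1-204 mirrored it with 327, 533, 260 and 798 counts in control replicates and 978, 275, 0 and 1122 after overexpression. In overexpression replicate 3 SESN1-202 held 97.7% of the gene's counts, and in replicate 4 SESN1-204 held 95.2%. Their sum stayed at 49.5 ± 1.16 CPM in controls and 52.5 ± 7.31 CPM in overexpression libraries (SD, n = 4 each).

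TSC2 was divided among 48 transcripts with counts. TSC2-248 had 2580, 0, 639 and 1631 counts in control replicates but 0, 5, 0 and 10 after overexpression. TSC2-250 counted 0, 2364, 2021 and 0 in control replicates and 2083, 349, 1874 and 0 after overexpression, and TSC2-207 appeared in overexpression replicates 2 and 4 alone, with 1215 and 1725 counts. Where one of these transcripts was high another was at or near 0, and the 3 together, a sum chosen after their values were seen, gave 87.3 ± 19.1 CPM in controls and 71.2 ± 5.49 CPM in overexpression libraries. Transcript usage, tested with edgeR's diffSpliceDGE, was called for 0 of the 7 genes tested at an adjusted p under 0.05, where 36 of 9395 genes (0.383%) were. At an unadjusted p under 0.05 it was 1 of the 7 (TSC2), where 3.47% of genes were. The filter left TSC2-207, with counts in 2 libraries, out of this test. The TSC2 result therefore covers the other tested transcripts, of which TSC2-248 had the smallest p (2.6e-05, diffSpliceDGE, unadjusted). The adjusted p of TSC2 was 0.0866. It was 0.0176 without control replicate 2 and 0.0279 without control replicate 4, and from 0.0837 to 0.382 without any one of the other libraries.

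DEPDC5 was divided most unevenly. Of its 63 annotated transcripts 36 had counts, 9 of them in all 8 libraries and 8 in 1 library. The leading transcript was a different one in each of the 8 libraries. In control replicate 2 DEPDC5-242 took 378 of the gene's 460 counts (82.2%) and had 0 counts in all other libraries. In overexpression replicate 3 DEPDC5-226 took 129 counts (55.6%), again with 0 elsewhere. The high level of the gene in control replicate 2 therefore came with a single transcript not counted in any other library, and the cause was not tested. In control replicate 1, the other high library, the leading transcript DEPDC5-223 held 21.7%.

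Its GATOR1 partners were more even. NPRL2 had 6 transcripts with at least 10% of the counts in a group, among them NPRL2-204, annotated for nonsense-mediated decay, at 35, 40, 68 and 35 counts in control replicates and 0, 0, 577 and 14 after overexpression. Another NPRL2 transcript, the retained-intron NPRL2-214, held 5.30% ± 2.03 of the gene in controls and 12.3% ± 4.82 in overexpression libraries (usage p 0.461, unadjusted). The protein-coding NPRL2-201 held 18.0% ± 9.14 in controls and 29.98% ± 23.2 in overexpression libraries. NPRL3 was led by the protein-coding NPRL3-211 in every library, at 49.96% ± 8.76 in controls and 51.0% ± 3.65 in overexpression libraries. CASTOR1, with its few counts, was led by CASTOR1-202 throughout, which held from 47.8% in overexpression replicate 3 to 92.5% in control replicate 3.

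**Figure D3:**
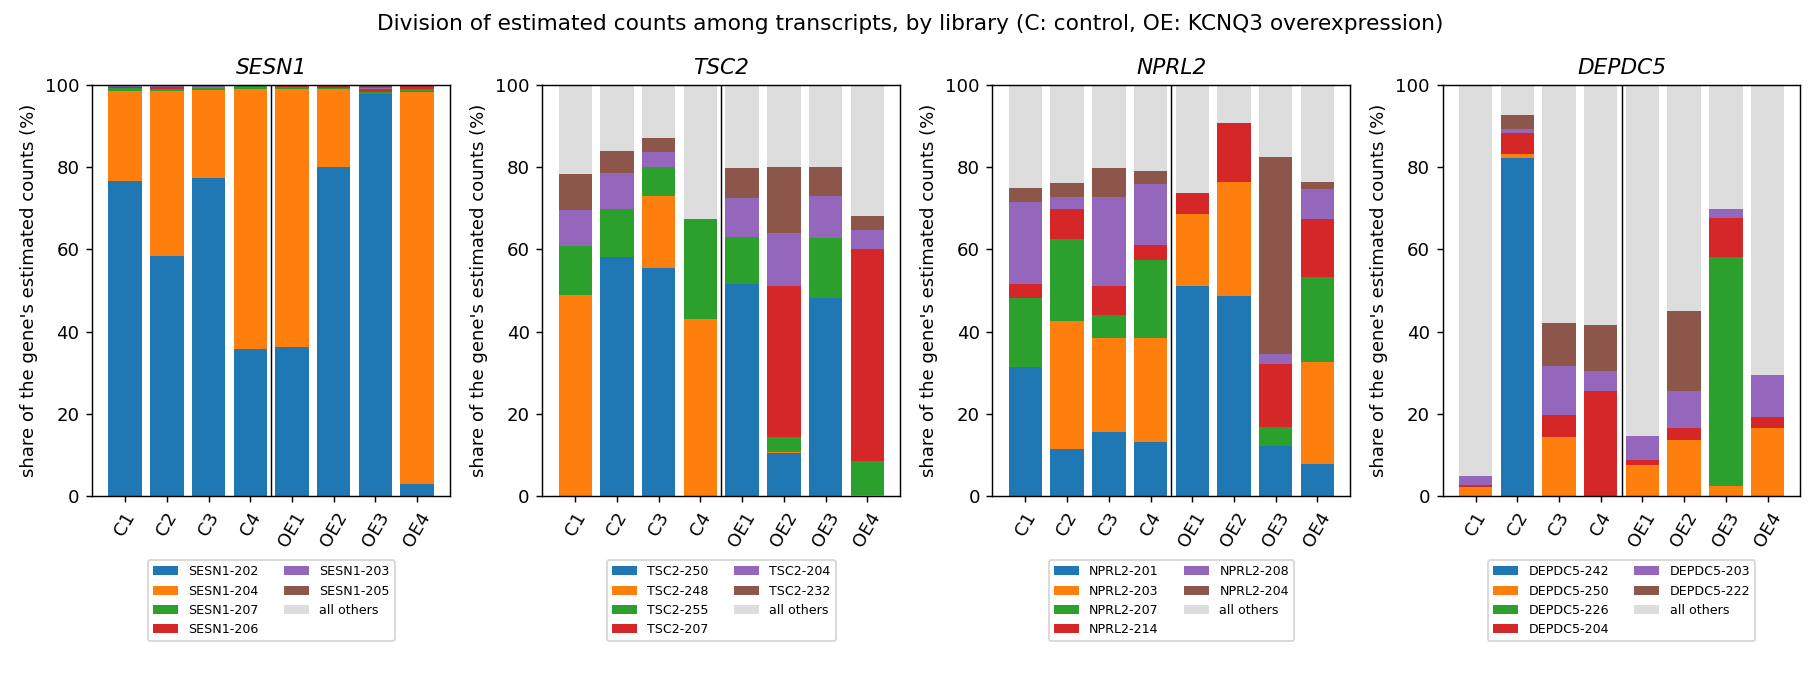
Share of each gene's estimated counts (percent, 0 to 100) held by its 6 leading transcripts and all others, for control (C1 to C4) and overexpression (OE1 to OE4) libraries. SESN1-202 and SESN1-204 alternate from library to library, TSC2-248 is seen in controls 1, 3 and 4, and DEPDC5-242 fills 82.2% of control 2 and is at 0 elsewhere.

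Other genes were ranked by how closely their spread between libraries followed that of SESN2. Over the 8 libraries, as deviations of log2 CPM from the group means among 11188 genes with at least 10 CPM, the genes most like SESN2 were VGLL4 (r = 0.994), AEN (0.993), LCA5 (0.991), IQCB1 (0.990) and CHAC1 (0.988). These are the highest of 11188 correlations over only 8 libraries, so high r and similar profiles follow from the selection. The libraries also share depth and preparation, so the correlations are a description. CHAC1, which degrades glutathione, stood at 47.6, 41.1, 49.2 and 41.4 CPM in controls and 40.5, 34.0, 24.8 and 22.5 CPM in overexpression libraries. AEN, a nuclear exonuclease, had 155, 138, 149 and 141 CPM in controls and 137, 122, 108 and 105 CPM in overexpression libraries. In both, as in SESN2, overexpression replicates 3 and 4 were the lowest and replicate 1 the nearest to controls.

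**Figure D4:**
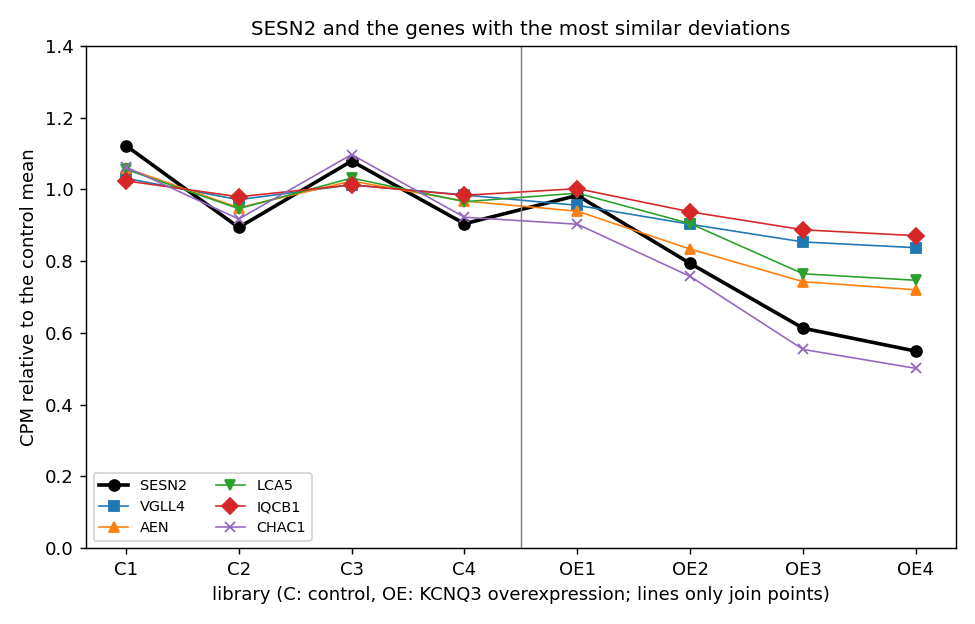
Level of SESN2 and of the 5 genes most like it, each relative to its control mean (linear axis), in the 4 control (C) and 4 overexpression (OE) libraries. All 6 lines have control replicates 1 and 3 above 2 and 4, and their lowest values in overexpression replicates 3 and 4. The 5 genes were picked for this likeness.

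The genes most like DDIT4 by the same measure were MBNL3 (r = 0.968), RNASEH2A (0.953), MICAL3 (0.948), ALKBH7 (0.941) and KCTD18 (0.939). Here too the likeness follows from picking the highest of many correlations. MBNL3 had 4.90, 30.4, 26.1 and 4.06 CPM in controls and 28.6, 27.2, 28.5 and 4.89 CPM in overexpression libraries. The libraries in which MBNL3 was low, control replicates 1 and 4 and overexpression replicate 4, were those in which DDIT4 was lowest within its group. MICAL3 was low in the same 3 libraries, at 7.33, 7.56 and 9.29 CPM against 18.0 CPM or more in the others. Among the 5 genes like SESN2 none was shared with DDIT4, and deviations of SESN2 and DDIT4 themselves had r = 0.259. The closest pair among the brake genes was DEPDC5 and NPRL3 (r = 0.826), followed by SESN1 and SESN2 (r = 0.732). These too are the highest of many correlations over only 8 libraries, and DEPDC5 was unevenly counted, so they are a description.

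Beyond the brakes, 65 other genes of the pathway were listed by role, and all were tested. None passed in edgeR's quasi-likelihood test. At an unadjusted p under 0.05, 6 were higher (9.92% of all genes) and 14 lower (9.46% of all genes). The groups did not overlap in 3 with higher values (5.84% of all genes) and 11 with lower values (5.77% of all genes). Of the 65 log2 fold changes 44 were below 0 (47.4% over all genes), with a median of -0.06. DESeq2, which called 4.86% of all genes, called 9 of the 65, namely LAMTOR2 and SEC13 as higher and TFE3, TRIB3, NFE2L2, ATF4, PRKAA2, DDIT3 and EIF4EBP1 as lower. Without overexpression replicate 1 edgeR called 3 (TFE3, NFE2L2 and FOXO3), beside 1.94% of all genes, and without control replicate 4 it called 2 (PRKAA2 and EIF4EBP1), beside 0.994% of all genes.

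In the parts that sestrins, CASTORs and GATOR1 act on, medians lay at or just above 0. The 5 GATOR2 genes had a median log2 fold change of 0.07, with SEC13, a subunit shared with the nuclear pore and COPII coats, at 127 ± 4.68 CPM in controls and 142 ± 4.63 CPM in overexpression libraries (adjusted p 0.106). In KICSTOR and SAMTOR, which place GATOR1 at the lysosome and link it to methionine, the median of 5 genes was 0.001. KPTN had a log2 fold change of 0.15 (adjusted p 0.243) and ITFG2, the most abundant of them by TPM, 0.03 (adjusted p 0.892), a sign that turned to -0.11 in limma on log2(TPM + 0.1). Of 13 Rag, Ragulator and lysosomal genes the median was 0.07, with 3 higher and 1 lower at an unadjusted p under 0.05, beside 9.92% and 9.46% of all genes. All 3 were Ragulator scaffold subunits: LAMTOR1 (log2 fold change 0.20, adjusted p 0.142), LAMTOR2 (0.16, 0.0983) and LAMTOR3 (0.18, 0.137). LAMTOR2 had 50.7, 53.4, 55.7 and 54.8 CPM in controls and 58.0, 62.8, 60.4 and 59.0 CPM in overexpression libraries, without overlap.

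Targets and partners of the TSC complex differed little. The 4 genes TSC1, TBC1D7, RHEB and RHEBL1 had a median log2 fold change of -0.05, and none had an unadjusted p under 0.05. TSC1, the partner of TSC2, stood at 51.7 ± 2.32 CPM in controls and 51.6 ± 0.83 CPM in overexpression libraries, and RHEB at 108 ± 3.34 and 101 ± 8.05 CPM. Among 9 subunits of mTORC1 and mTORC2 the median was -0.08. PRR5, which belongs to mTORC2, had a log2 fold change of 0.30 (adjusted p 0.104), from 9.23 ± 0.92 to 11.4 ± 0.65 CPM. MTOR itself had -0.08 (adjusted p 0.371), and MLST8, the most abundant subunit on the TPM scale, 0.06, which was -7.4e-05 in limma on log2(TPM + 0.1).

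Of 8 other inhibitors of the pathway, 7 lay below 0 in log2 fold change, beside 47.4% of all genes. Their median was -0.09, and 4 were lower at an unadjusted p under 0.05, beside 9.46% of all genes. TRIB3, a pseudokinase that restrains AKT and is a known ATF4 target, had 98.9, 64.2, 96.2 and 62.0 CPM in controls and 54.9, 47.0, 41.1 and 42.4 CPM in overexpression libraries. All 4 overexpression values lay below the controls (log2 fold change -0.79, SE 0.20), and the adjusted p was 0.112. PRKAA2, a catalytic subunit of the energy sensor AMPK, stood at 78.2 ± 3.76 and 67.7 ± 2.49 CPM (log2 fold change -0.21, adjusted p 0.0669).

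Among 10 substrates and readouts the median log2 fold change was -0.08, and 9 were below 0, beside 47.4% of all genes. At an unadjusted p under 0.05, 3 were lower, beside 9.46% of all genes. In 3 the groups did not overlap with the controls higher, beside 5.77% of all genes. EIF4EBP1, the translation repressor that mTORC1 phosphorylates, had 279, 264, 277 and 240 CPM in controls and 222, 231, 237 and 216 CPM in overexpression libraries. The groups did not overlap (log2 fold change -0.23, adjusted p 0.0807). The lysosomal transcription factors TFE3 (-0.26, adjusted p 0.0816) and TFEB (-0.29, adjusted p 0.138) did not overlap either. RPS6, the most abundant of the list by TPM, had a log2 fold change of -0.10 (adjusted p 0.535).

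The list of transcription factors known to induce sestrin or DDIT4 genes had the lowest median. All 11 had log2 fold changes below 0, beside 47.4% of all genes, with a median of -0.17. At an unadjusted p under 0.05, 6 were lower, beside 9.46% of all genes, none of which passed after adjustment in edgeR. DDIT3 (CHOP) had 33.4, 30.2, 41.0 and 28.5 CPM in controls and 24.6, 24.4, 18.3 and 16.6 CPM in overexpression libraries, with a log2 fold change of -0.66 (SE 0.17, adjusted p 0.112). ATF4 stood at 816 ± 23.6 and 734 ± 17.9 CPM, without overlap (log2 fold change -0.15, adjusted p 0.104), but was 0.009 in limma on log2(TPM + 0.1). NFE2L2 (NRF2) had 66.4 ± 2.79 and 56.0 ± 4.40 CPM (-0.25, adjusted p 0.0807). Several of these genes were known to be low in earlier results on the same libraries, so their direction is not independent of that of SESN2 and DDIT4.

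**Figure D5:**
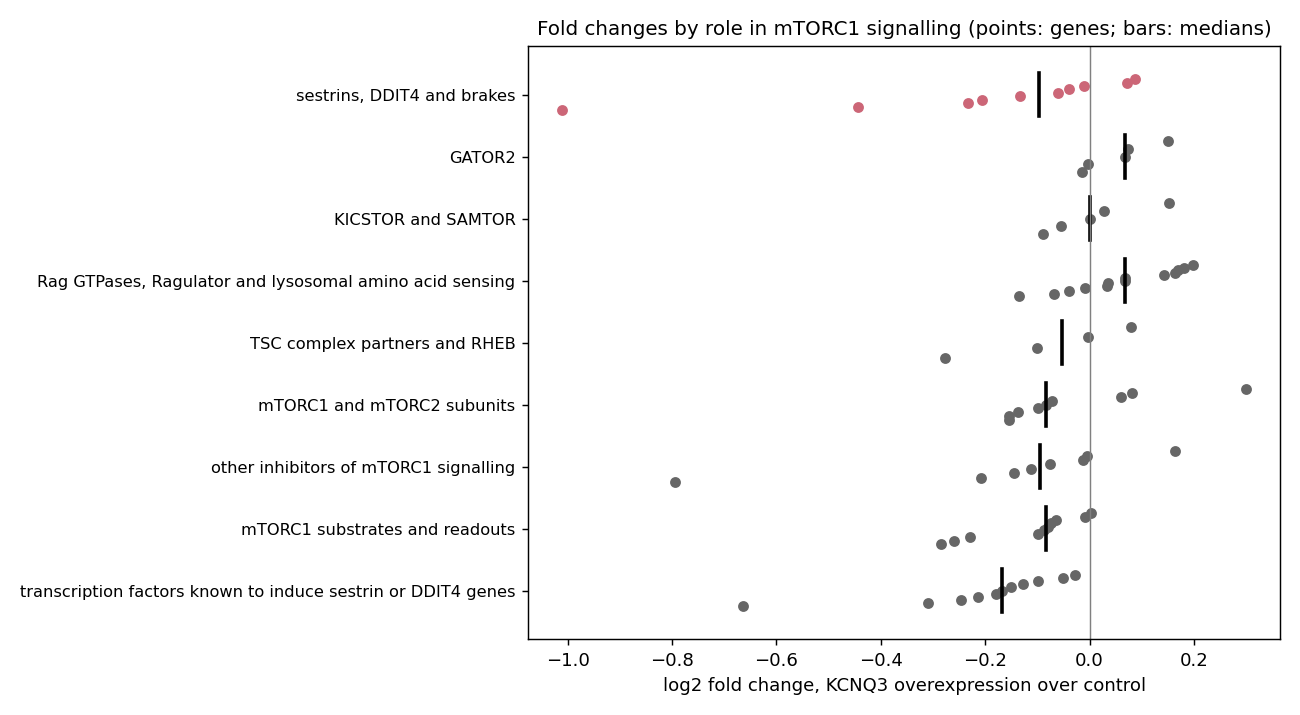
Log2 fold change (overexpression over control) of the 10 brake genes and of 65 other genes of the mTORC1 pathway by role. Points are genes and black bars are medians, which run from 0.07 for GATOR2 to -0.17 for the transcription factors.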

How the data were processed

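For 8 libraries the authors deposited TPM and estimated counts for each transcript. The submitters' processing notes name StringTie 2.1.0, HISAT2 2.1.0, SAMtools 1.9, FastQC 0.11.5, cutadapt 2.8 and build GRCh38.p13, and the sources used here do not give their roles, the annotation release or strand. Deposited counts were whole but estimated, so that reads common to isoforms or overlapping genes were split by the authors' estimator.

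Genes were assigned through GENCODE 29 (GRCh38). Of 227751 identifiers 205804 matched, and they held 98.8% to 98.9% of the counts. Counts were summed per gene, and edgeR 4.0.16's quasi-likelihood test (R 4.3.3, robust, TMM, filterByExpr with a minimum count of 10 and a total of 15, Benjamini-Hochberg over all genes, threshold 0.05) compared 4 libraries with 4, without covariates. Transcripts were tested likewise and usage by diffSpliceDGE. A low estimated count limits the precision: 46 counts for CASTOR1 at the lowest. Promoters came from RefSeq, build GRCh38.p14. The tests were also run on simulated data. The simulation for usage gave every transcript the same dispersion. It therefore cannot show how the usage test behaves on isoforms as uneven as those seen here.

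The 10 genes and the lists were chosen with earlier results of these data known. The rule for names took the 10 genes, from each pathway list up to 3 with the smallest unadjusted p under 0.05 and the most abundant by TPM, the 5 genes most like SESN2 and DDIT4, and transcripts with at least 10% of a gene's counts in a group. Not all of these transcripts are printed, 1 gene the rule took is not reported here, and MTOR, TSC1, FOXO3, CASTOR3 and the overlapping genes were named outside that rule. Likeness used log2(CPM + 0.5). The labels do not say that replicate numbers shared across groups pair the libraries, so the main fit did not use them. Alternatives were DESeq2 1.42.0 and its size factors, no scaling, other filters, limma 3.58.1 on log2(TPM + 0.1) and log2(TPM + 1), the replicate block and leaving out each library. One was chosen after seeing the data, the read-through counts added to CASTOR1.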

Additional observations from a re-analysis of the deposited data

How the results depend on the processing

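None of the 10 genes passed the threshold at gene level under any alternative run, with adjusted p from 0.0777 to 0.358 for DDIT4, 0.0888 to 0.503 for SESN2 and 0.112 to 0.435 for TSC2. Genes past the threshold numbered 58 (21 higher, 37 lower) in the reported fit, 35 (9 and 26) with no scaling factor, 727 (309 and 418) in DESeq2, 7 (5 and 2) in limma on log2(TPM + 0.1) or log2(TPM + 1), and 8 to 378 without single libraries. DESeq2 also called 9 of the 65 pathway genes and 2 transcripts of the 10 genes. Without single libraries, 0 to 3 pathway genes passed, 1 to 4 of the 10 genes had an unadjusted p under 0.05, 1 to 3 did not overlap and 0 to 1 had changed usage. In those runs 7.18% to 11.7% of all genes were lower at an unadjusted p under 0.05. Another share, 7.2% to 11.3%, lay lower without overlap. On both TPM scales 0 of the 10 genes had groups without overlap. Signs turned in limma on log2(TPM + 0.1) and log2(TPM + 1) for ITFG2 (-0.11 and -0.10), MLST8 (-7.4e-05 and -6.1e-05) and ATF4 (0.0094 and 0.0093), for CASTOR1 with read-through counts added (0.0044), and without single libraries for SESN3 (-0.065 to 0.028), NPRL2 (-0.017 to 0.135), ITFG2 (-0.037 to 0.077) and the SESN1 to SESN3 ratio (-0.013 to 0.164). The SESN2 to SESN1 difference was -0.54 (exact permutation p = 0.0571) on log2(TPM + 0.1) and -0.66 to -0.46 without single libraries. The causes were not tested. Same-numbered libraries correlated at -0.05 to 0.05 in their deviations from the group means. Only control replicate 1 was closest to the library of its own number in the other group. A correlation over all genes cannot show whether the numbers mark pairs. With the replicate block 86 genes passed (29 higher, 57 lower), 0 of the 10 among them, and the SESN2 to SESN1 difference of -0.55 had an exact p of 0.125, the smallest that 4 pairs can give. The adjusted p of TSC2 transcript usage was 1 with the block. At 46 to 94 counts per library, depth limits CASTOR1.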
